A study of Mus musculus with 9 samples.

Results

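Macrophages that lacked MKP5 and had spent 24 h with ox-LDL, the oxidized form of low-density lipoprotein, were set against wild-type (WT) macrophages at 0 h. The question was which genes of the treated knockout cells stood at the resting WT level and which stood away from it. The comparison was between 6 of the 9 RNA-seq libraries of the study. MKP5-KO 24 h cells (MKP-5-/-, ox-LDL for 24 h, 3 libraries) and WT 0 h cells (no exposure to ox-LDL, 3 libraries) formed the pair. WT 24 h cells (ox-LDL for 24 h, 3 libraries) are given beside them as values. Their libraries also entered the filter of tested genes and the shared estimate of spread behind each SE and limma p-value. All cells were bone marrow-derived macrophages from mouse femurs, cultured for 7 days. Their medium held 15% L-929 cell supernatant, which supplies macrophage colony-stimulating factor. The dose of ox-LDL was 20 µg/mL. The genotype and the 24 h with ox-LDL changed together between the 2 groups, so their parts in a difference cannot be told apart within this pair. Neither MKP5-KO cells at 0 h nor untreated WT cells at 24 h were analysed here. The labels do not say whether the 3 libraries of a group came from separate mice or separate cultures, so p-values measure the spread between these libraries, which may be technical.

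MKP5, encoded by Dusp10, is a dual-specificity phosphatase that removes phosphate from the stress-activated MAP kinases p38 and JNK. Ox-LDL is taken up through scavenger receptors such as CD36 and loads macrophages with cholesterol. In cholesterol-loaded cells the SREBP2 program of sterol synthesis is known to be shut down and the LXR program of cholesterol efflux to be turned on. Such foam cells fill atherosclerotic plaques.

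Dusp10 itself had 4, 6 and 4 reads in MKP5-KO 24 h cells, 43, 38 and 40 in WT 24 h cells and 41, 48 and 44 in WT 0 h cells, matching the labels in all 9 libraries. Its log2 fold change between MKP5-KO 24 h and WT 0 h cells was -2.83 (SE 0.26, limma adjusted p = 3.68e-06). Reads summed over genes ran from 11087725 to 14308761 in MKP5-KO 24 h cells, from 17360886 to 19784214 in WT 24 h cells and from 15677467 to 17132314 in WT 0 h cells. The first principal component held 61.5% of the variance and set the 6 libraries at 24 h (-34.4 to -42.4) apart from WT 0 h cells (74.9 to 79.9). The second held 17.2% and set MKP5-KO 24 h cells (28.3 to 48.1) apart from WT 24 h cells (-26.8 to -37.9). Levels are given as CPM, the reads of a gene per 1000000 reads of its library after scaling by the TMM factor. CPM values are not divided by gene length, so they compare libraries and not genes. The labelled cell type was checked against its markers. The 12 macrophage markers summed to 13307 to 15246 CPM in MKP5-KO 24 h cells and 8364 to 8710.4 CPM in WT 0 h cells, with 8 higher, 2 lower (Cd68 and Fcgr1) and 2 not called. The 8 markers of T and NK cells summed to 0.121 to 0.292 CPM in MKP5-KO 24 h cells and 0.257 to 0.324 CPM in WT 0 h cells.

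Across 14690 tested genes, limma with Benjamini-Hochberg adjustment at 0.05 called 3667 higher (25.0%) and 4615 lower (31.4%) in MKP5-KO 24 h than in WT 0 h cells, 56.4% in all. A change of at least 2-fold was called for 1379 higher (9.39%) and 1018 lower genes (6.93%). Genes shown to lie within 1.5-fold of the resting level, by a pair of one-sided limma tests, numbered 5113 (34.8%). Of these, 3108 (21.2%) were not called different and 2005 (13.6%) differed by a small called amount. For 3300 genes (22.5%) neither call was made. The fitted log2 fold change had a median of -0.02 and quartiles of -0.41 and 0.47. The split into higher and lower depended on the scaling. With upper-quartile factors the median of all genes moved to 0.12, and 4911 genes were called higher and 3507 lower, so small changes are read relative to that shift. Values of 3 libraries of each group did not overlap for 9318 genes (63.4%).

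**Figure D1:**
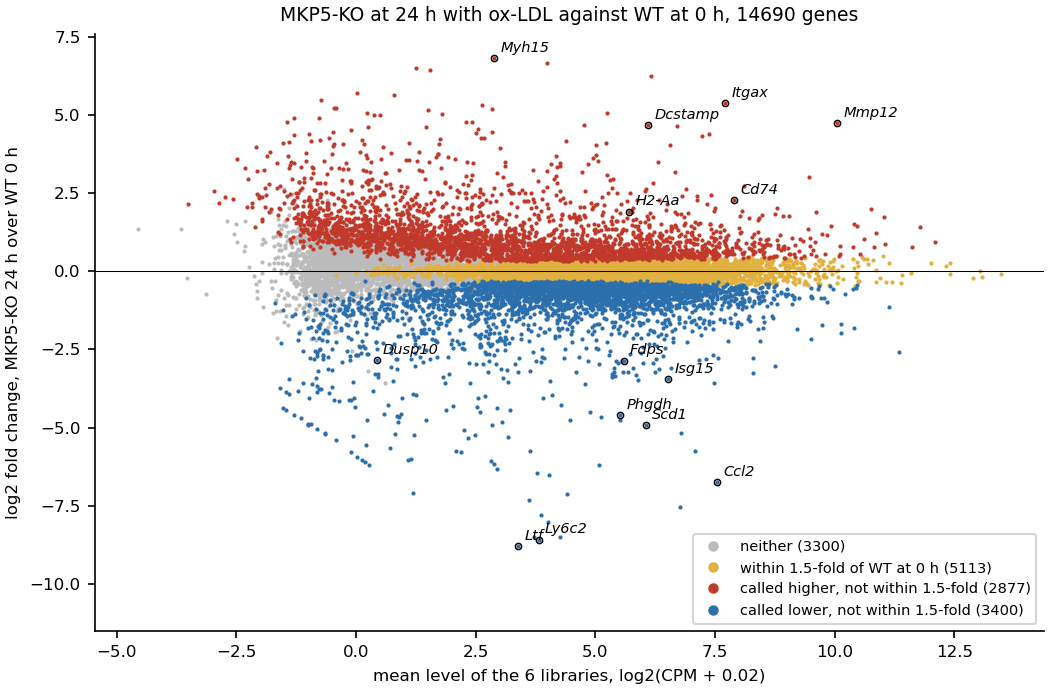
Log2 fold change of MKP5-KO 24 h over WT 0 h cells (vertical axis) against mean log2 level (horizontal axis) for the 14690 tested genes, 1 point a gene. Colours separate genes called higher or lower, genes within 1.5-fold and genes with neither call; the 5113 genes within 1.5-fold form the band around 0, and the labelled falls of Ltf and Ly6c2 lie farther from 0 than the labelled rise of Myh15.

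Itgax, Mmp12 and Dcstamp were among the genes that stood farthest above the resting level. Itgax, the integrin subunit CD11c, had 407, 403 and 424 CPM in MKP5-KO 24 h cells, 132, 106 and 98.1 in WT 24 h cells and 9.46, 9.46 and 10.4 CPM in WT 0 h cells. The MKP5-KO 24 h libraries all lay above 400 CPM, with WT 24 h cells between them and rest, and the log2 fold change against WT 0 h cells was 5.39 (SE 0.095, limma adjusted p = 3.84e-11), a 42-fold difference. Mmp12, the macrophage elastase, had 1877, 2025 and 2249 CPM in MKP5-KO 24 h cells, 977, 750.4 and 703 in WT 24 h cells and 79.3, 70.3 and 81.7 CPM in WT 0 h cells. It was 26.6-fold higher than at rest, with a log2 fold change of 4.73 (SE 0.12, limma adjusted p = 9.72e-10). Dcstamp, the membrane protein needed for fusion of osteoclasts and giant cells, had 127, 131 and 137 CPM in MKP5-KO 24 h cells, 25, 15.1 and 14.3 in WT 24 h cells and 6.14, 4.48 and 4.81 CPM in WT 0 h cells. Its log2 fold change was 4.68 (SE 0.19, limma adjusted p = 1.52e-08) in MKP5-KO 24 h cells and 1.78 in WT 24 h cells against the same resting libraries.

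Other leading rises were Myh15, a myosin heavy chain gene, at 6.81 log2 units, Adgre4, an adhesion receptor of myeloid cells, at 6.65, and Plxdc2, a plexin domain protein, at 6.26. Fzd1, a WNT receptor, reached 5.31 log2 units, Lrrc32, the GARP protein that holds latent TGF-beta at the cell surface, 5.18 log2 units, and Il27ra, the interleukin 27 receptor, 4.77 log2 units. Gprc5c reached 5.05 log2 units, Mamdc2 4.67 log2 units and Fat3 4.65 log2 units, all with limma adjusted p between 3.84e-11 and 2.05e-06 for these 9 genes. In WT 24 h cells the log2 fold change over the same rest was 6.34 for Adgre4 and 4.82 for Gprc5c. For Lrrc32 and Il27ra, WT 24 h cells stood 2.88 log2 units and 2.32 log2 units above the same WT 0 h cells.

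Ltf, S100a9 and Ly6c2, known as genes of neutrophils and of classical monocytes, were among the farthest falls. Ltf, the granule protein lactoferrin, had 1 read over the 3 MKP5-KO 24 h libraries and 1174 over the 3 WT 0 h libraries, a 953-fold ratio with a 95% counting interval of 171 to 37700. S100a9, a calcium-binding protein of neutrophils and monocytes, had 0.0729, 0.0646 and 0.182 CPM in MKP5-KO 24 h cells, against 27, 31.5 and 29 CPM in WT 0 h cells. Ly6c2, the Ly6C antigen of classical monocytes, had 0, 0.323 and 0 CPM in MKP5-KO 24 h cells, against 28.6, 27 and 28.4 CPM in WT 0 h cells. Every resting library stood above 20 CPM for these genes and every MKP5-KO 24 h library below 1 CPM. The log2 fold changes were -7.80 for S100a9 and -8.58 for Ly6c2. The size of the Ly6c2 value rested on reads found in MKP5-KO library 2 alone, being -9.72 without that library and -7.94 without library 3.

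Ccl2 and Ccl7, chemokines that attract monocytes, fell as well. Ccl2 had 1.53, 6.07 and 4.18 CPM in MKP5-KO 24 h cells, 2.4, 1.74 and 3.37 in WT 24 h cells and 334, 407 and 366 CPM in WT 0 h cells, a log2 fold change of -6.75 (SE 0.41, limma adjusted p = 2.7e-07). Ccl7 had 0.437, 2.91 and 1.09 CPM in MKP5-KO 24 h cells, against 187, 254 and 215 CPM in WT 0 h cells, a log2 fold change of -7.55, which was -6.90 without MKP5-KO library 1 and -8.22 without library 2. Tspan32, a tetraspanin of blood cells, had 0.219, 0.258 and 0.545 CPM in MKP5-KO 24 h cells, 1.52, 2.43 and 2.17 in WT 24 h cells and 32.4, 31.3 and 33.1 CPM in WT 0 h cells, so the knockout libraries lay below the WT 24 h libraries as well. Chil3, a chitinase-like protein of macrophages, stood at -7.32 log2 units (-7.93 without MKP5-KO library 2) and Padi4, the citrullinating enzyme of neutrophils, at -7.12 log2 units, with limma adjusted p of 9.07e-06 and 4.94e-06.

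Most markers of these cell types were lower, against 31.4% of all tested genes. Of 12 tested markers of neutrophils and granulocyte precursors, 10 were lower, 1 higher (Csf3r, the G-CSF receptor) and 1 not called; the list summed to 50.5 to 55 CPM in MKP5-KO 24 h cells, 70 to 77.2 CPM in WT 24 h cells and 189.8 to 204 CPM in WT 0 h cells. Camp, Elane, Mpo, Ctsg, Ly6g and Retnlg had no read in MKP5-KO 24 h cells. Mpo, the peroxidase of primary granules, was at least 69.0-fold lower there, taking 3 reads over the group as the floor. Of 8 markers of classical monocytes, 7 were lower and 1 higher (Fn1), with sums of 98.5 to 123 CPM in MKP5-KO 24 h cells and 444 to 472 CPM in WT 0 h cells. The lower call of Vcan was lost in 7 of 19 alternatives. These included leaving out MKP5-KO library 2 or any 1 WT 0 h library (limma adjusted p of 0.104, 0.0586, 0.0788 and 0.0954). In these bulk samples, fewer cells of a type and less RNA per cell cannot be told apart, and the part of a cell mixture in the falls was not tested.

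**Figure D2:**
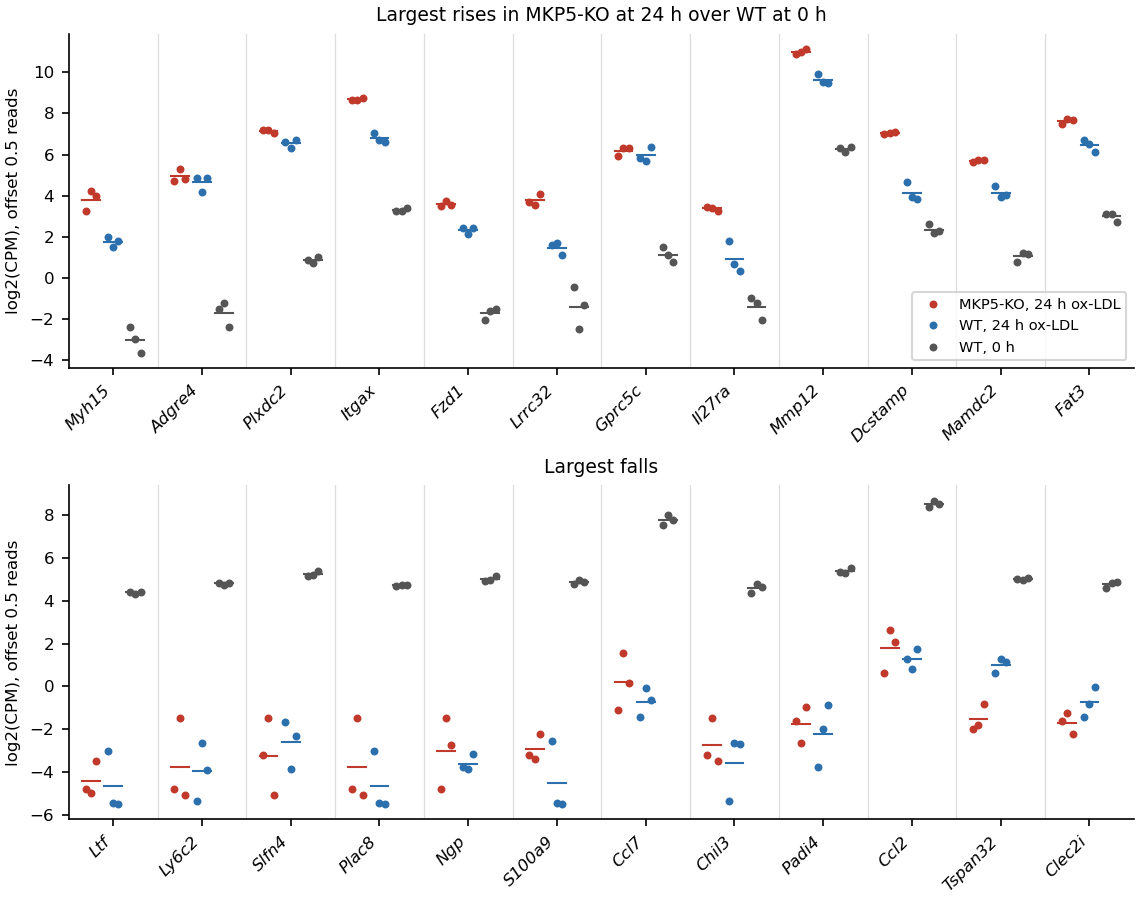
Log2 CPM (with 0.5 reads added) of 12 leading rises (top) and 12 leading falls (bottom) in each of the 9 libraries, 1 point a library and a horizontal bar at each group mean, with MKP5-KO 24 h left of WT 24 h and WT 0 h. Itgax and Dcstamp are highest in the 3 MKP5-KO libraries, whereas Ccl2 and Ltf are low in both 24 h groups.

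Most genes of antigen presentation through MHC class II stood above rest in the knockout. Of 15 tested members, 10 were higher and 2 lower, against 25.0% and 31.4% of all tested genes. The median log2 fold change was 0.69 in MKP5-KO 24 h cells and 0.03 in WT 24 h cells, beside -0.02 over all tested genes in MKP5-KO 24 h cells. Ciita, the master coactivator of class II transcription, had 19.8, 19.2 and 17.8 CPM in MKP5-KO 24 h cells, 5.63, 4.45 and 5.89 in WT 24 h cells and 3.15, 3.09 and 3.14 CPM in WT 0 h cells. Its 3 knockout libraries were above all 6 WT libraries, with a log2 fold change of 2.59 (SE 0.19, limma adjusted p = 8.04e-07). Cd74, the invariant chain that guards the class II peptide groove, had 401, 436 and 352 CPM in MKP5-KO 24 h cells, 88.3, 46.1 and 56.9 in WT 24 h cells and 78.7, 81.7 and 82.6 CPM in WT 0 h cells. Its log2 fold change was 2.28 (SE 0.18, limma adjusted p = 2.25e-06) against rest, while WT 24 h cells lay at -0.40.

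The class II chains themselves were on opposite sides of the resting level in the knockout and WT cells at 24 h. H2-Aa, the alpha chain of I-A, had 78.9, 92.8 and 76 CPM in MKP5-KO 24 h cells, 11.7, 6.11 and 7.8 in WT 24 h cells and 21.9, 21.8 and 21.8 CPM in WT 0 h cells. The resting libraries lay between the 2 treated groups with no overlap, at a log2 fold change of 1.91 (SE 0.19, limma adjusted p = 9.37e-06) in the knockout and -1.41 in WT 24 h cells. H2-Ab1, its beta chain, had 81, 98 and 73.2 CPM in MKP5-KO 24 h cells, 16.8, 7.07 and 10.2 in WT 24 h cells and 25.5, 26.5 and 27.4 CPM in WT 0 h cells. H2-Eb1, the I-E beta chain, had 57.4, 66.4 and 56.9 CPM in MKP5-KO 24 h cells, 8.66, 3.26 and 4.78 in WT 24 h cells and 20.9, 19.7 and 21.8 CPM in WT 0 h cells. Both stood in the same order, at 1.65 log2 units (SE 0.24, limma adjusted p = 0.000195) for H2-Ab1 and 1.53 log2 units (SE 0.26, limma adjusted p = 0.000593) for H2-Eb1 in the knockout against rest.

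Among the genes of peptide loading, H2-DMa, a chain of the exchange factor DM, had a log2 fold change of 1.27 (SE 0.096, limma adjusted p = 8.11e-07), and Ctss, the protease that trims the invariant chain, one of 1.03 (SE 0.063, limma adjusted p = 1.72e-07). H2-DMb1 and H2-DMb2, the other chains of DM, were also higher, at 0.55 log2 units and 0.69 log2 units. The call of H2-DMb2 was lost without MKP5-KO library 1 or 3 or WT 0 h library 2 or 3 (limma adjusted p of 0.0644, 0.0619, 0.077 and 0.0688). Ifi30, the lysosomal thiol reductase, was higher by only 0.19 log2 units, inside the 1.5-fold limit, and its call was lost without WT 0 h library 1 (limma adjusted p = 0.051). The 2 lower members form DO, the inhibitor of DM. H2-Ob had 0.729, 0.323 and 0.787 CPM in MKP5-KO 24 h cells, against 1.85, 1.65 and 1.62 CPM in WT 0 h cells, a log2 fold change of -1.51 (SE 0.36, limma adjusted p = 0.00404). H2-Oa had fewer than 1 CPM in every library, with a log2 fold change of -1.35 (SE 0.40, limma adjusted p = 0.0138), and its call was lost without WT 0 h library 1 (limma adjusted p = 0.0593), which leaves 1 lower member. Rfx5, Rfxank and Rfxap, the subunits of the factor that binds class II promoters, were not called different and were all within 1.5-fold of rest.

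Of 10 markers of dendritic cells, which carry class II at rest, 3 had enough reads to be tested and none of these 3 was called. The 10 markers summed to 4.78 to 5.47 CPM in MKP5-KO 24 h cells, 2.8 to 4.52 in WT 24 h cells and 5.87 to 6.76 in WT 0 h cells. Among untested genes, Flt3 had 3 reads over the knockout libraries and 40 over the resting ones (10.8-fold, 95% counting interval 3.45 to 54.7). For Ccr7 and Xcr1, also lower and untested, the intervals included equal levels (0.435 to 24.7 and 0.454 to 192). The 7 B cell markers summed to 1.33 to 2.13 CPM in MKP5-KO 24 h cells and 4.58 to 5.68 CPM in WT 0 h cells, and Ms4a1 and Pax5 had no read in the knockout.

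Promoters of H2-Aa and H2-Eb1 are shown because these genes stood on opposite sides of rest at 24 h and because both carry the Y box, CTGATTGG, one of the conserved elements of class II promoters. The 250 bases before the gene start are RefSeq sequence of build GRCm38.p6, on the gene's strand, with the Y box in capitals. The H2-Aa promoter is chr17:34287824-34288073 (minus strand) and the H2-Eb1 promoter chr17:34305617-34305866 (plus strand).
H2-Aa: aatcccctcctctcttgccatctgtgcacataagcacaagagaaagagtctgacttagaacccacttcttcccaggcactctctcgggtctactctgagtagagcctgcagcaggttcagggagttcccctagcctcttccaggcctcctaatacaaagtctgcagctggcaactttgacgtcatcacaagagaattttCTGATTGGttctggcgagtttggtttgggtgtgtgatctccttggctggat
H2-Eb1: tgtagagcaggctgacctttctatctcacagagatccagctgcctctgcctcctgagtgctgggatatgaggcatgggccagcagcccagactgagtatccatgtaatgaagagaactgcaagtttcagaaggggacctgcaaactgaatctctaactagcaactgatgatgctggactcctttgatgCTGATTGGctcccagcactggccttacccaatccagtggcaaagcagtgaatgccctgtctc
On either strand of the 250 bases before to 50 after the start, the Y box was found in 3 of 11 class II members with a promoter in the table (27.3%) and in 6.87% of the 10442 tested genes with one. The third, H2-Oa, was lower. A match describes letters and is not a binding site.

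MHC class I genes moved the other way. Of 20 tested members, none was higher and 18 were lower, beside 25.0% and 31.4% of all tested genes, and 2 were not called. Of the 20, 6 lay within 1.5-fold of rest, against 34.8% of all tested genes. The median was -0.47 in MKP5-KO 24 h cells and -0.75 in WT 24 h cells. Nlrc5, the coactivator of class I transcription, had 36.4, 41.2 and 27.1 CPM in MKP5-KO 24 h cells, 40.8, 39.3 and 39.8 in WT 24 h cells and 97.4, 107 and 103 CPM in WT 0 h cells, a log2 fold change of -1.57 (SE 0.13, limma adjusted p = 1.43e-06). Tapbp, the tapasin of the loading complex, fell, at -0.77 log2 units (SE 0.048, limma adjusted p = 2e-07), and H2-T23, the mouse Qa-1 molecule, stood at -0.82 log2 units (SE 0.058, limma adjusted p = 4.96e-07). B2m, the class I light chain, had 1660.5, 1744 and 1548 CPM in MKP5-KO 24 h cells, against 2013, 2131 and 2106 CPM in WT 0 h cells, and its log2 fold change of -0.34 was inside the 1.5-fold limit. H2-D1 was not called different and lay within 1.5-fold of rest.

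Ligands of T cell co-stimulation and inhibition were all called different. Of 15 tested, 6 were higher and 9 lower, beside 25.0% and 31.4% of all tested genes. Vsir, the inhibitory ligand VISTA, had 733, 769.9 and 765 CPM in MKP5-KO 24 h cells, 808, 770.3 and 842 in WT 24 h cells and 213, 225 and 223 CPM in WT 0 h cells. Cd83, a protein that keeps class II on the surface, had 55.7, 59.1 and 55.1 CPM in MKP5-KO 24 h cells, 38.9, 36.4 and 37.7 in WT 24 h cells and 14.4, 17.2 and 14.3 CPM in WT 0 h cells. Both groups at 24 h lay above rest, and the log2 fold changes in the knockout were 1.78 (SE 0.046, limma adjusted p = 5.99e-10) for Vsir and 1.89 (SE 0.076, limma adjusted p = 6.95e-09) for Cd83. Cd40, the receptor for CD40 ligand on T cells, had 2.41, 2.13 and 2.91 CPM in MKP5-KO 24 h cells, against 10.9, 13.2 and 9.19 CPM in WT 0 h cells, and Cd86, a ligand of CD28, had 11.1, 14.3 and 12.2 CPM in MKP5-KO 24 h cells, against 20.2, 27 and 24.4 CPM in WT 0 h cells. Both fell, at -2.14 log2 units and -0.93 log2 units against rest. Tnfsf9, the 4-1BB ligand, and Lgals9, the lectin galectin 9, were lower as well, at -2.24 log2 units (SE 0.15, limma adjusted p = 2.77e-07) and -1.83 log2 units (SE 0.063, limma adjusted p = 2.66e-09). Cd80 was lower in the knockout at -0.78 log2 units (SE 0.21, limma adjusted p = 0.00739) and lay at -0.010 log2 units in WT 24 h cells.

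Genes of osteoclast fusion and bone resorption were mostly above rest. Of 22 tested members, 15 were higher and 4 lower (Clcn7, Ostm1, Tcirg1 and Jdp2), beside 25.0% and 31.4% of all tested genes. Over the alternative settings the higher count ran from 13 to 15, and the call of Itgb3 was lost in 7 of 19. The median was 0.65 in MKP5-KO 24 h cells and 0.44 in WT 24 h cells. Atp6v0d2, a proton pump subunit of osteoclasts, had 227, 316 and 312 CPM in MKP5-KO 24 h cells, 151, 104 and 119 in WT 24 h cells and 13.3, 15.5 and 13.4 CPM in WT 0 h cells. Acp5, the tartrate-resistant acid phosphatase, had 14.6, 17.6 and 14.4 CPM in MKP5-KO 24 h cells, 6.61, 3.72 and 2.88 in WT 24 h cells and 3.48, 4.06 and 2.7 CPM in WT 0 h cells. Mmp9, the gelatinase of osteoclasts and macrophages, had 19.8, 31.3 and 31.1 CPM in MKP5-KO 24 h cells, 3.92, 1.97 and 2.26 in WT 24 h cells and 4.35, 4.94 and 3.24 CPM in WT 0 h cells. For Acp5 and Mmp9 the knockout libraries stood above all 6 WT libraries, and the log2 fold changes against rest were 2.19 (SE 0.26, limma adjusted p = 4.3e-05) and 2.69 (SE 0.27, limma adjusted p = 1.05e-05), beside 0.29 and -0.66 in WT 24 h cells.

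Ocstamp, the partner of Dcstamp in fusion, stood at 3.29 log2 units (SE 0.49, limma adjusted p = 0.000156). Prdm1, the repressor Blimp-1, was 10.2-fold higher at 3.35 log2 units (SE 0.11, limma adjusted p = 2.25e-09), and Mitf, a transcription factor of osteoclasts and lysosomes, stood at 1.44 log2 units (SE 0.062, limma adjusted p = 1.22e-08). Nfatc1, the master transcription factor of osteoclasts, had 73.3, 75.8 and 75.7 CPM in MKP5-KO 24 h cells, 98.6, 109 and 113 in WT 24 h cells and 62.5, 68.6 and 64 CPM in WT 0 h cells. Its difference from rest was 0.21 log2 units, inside the 1.5-fold limit, and was no longer called without MKP5-KO library 2 or 3 or without WT 0 h library 1 or 3 (limma adjusted p of 0.0568, 0.052, 0.0764 and 0.0664). Ctsk, the bone-degrading cathepsin K, had 1.97, 2.26 and 1.57 CPM in MKP5-KO 24 h cells, against 1.47, 2.37 and 1.95 CPM in WT 0 h cells. The groups overlapped and neither call was made (limma adjusted p = 0.961, 95% interval of the log2 fold change -0.70 to 0.74). Calcr, the calcitonin receptor of osteoclasts, had 2 reads in all over the knockout libraries and none over the resting ones.

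Of 31 tested AP-1, EGR and related immediate early genes, 12 were higher, against 25.0% of all tested genes, and 11 were lower, near the overall 31.4%. Egr2, a zinc finger factor induced by growth factors, had 53.9, 63.7 and 63.4 CPM in MKP5-KO 24 h cells, 15.8, 12.4 and 12.7 in WT 24 h cells and 4.78, 4.37 and 4.49 CPM in WT 0 h cells. Fos, the AP-1 subunit, had 65.2, 83.2 and 68.6 CPM in MKP5-KO 24 h cells, 32.7, 32.4 and 30.3 in WT 24 h cells and 23.6, 22.7 and 24.6 CPM in WT 0 h cells. The knockout libraries were the highest in both, at 3.72 log2 units (SE 0.11, limma adjusted p = 1.44e-09) for Egr2 and 1.61 log2 units (SE 0.085, limma adjusted p = 5.42e-08) for Fos. Egr1 stood at 1.13 log2 units (SE 0.22, limma adjusted p = 0.00114) in the knockout, and at -0.58 log2 units in WT 24 h cells. Btg2, an antiproliferative gene, was higher by 1.79 log2 units, beside a value of 1.47 log2 units in WT 24 h cells.

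Jun and Myc were among the members that fell. Jun, the main partner of FOS in AP-1, had 94.8, 112 and 101 CPM in MKP5-KO 24 h cells, 98.2, 82 and 76.7 in WT 24 h cells and 202, 215 and 209 CPM in WT 0 h cells, a log2 fold change of -1.03 (SE 0.088, limma adjusted p = 2.32e-06). Myc, the growth-promoting factor, had 15.5, 19 and 18.5 CPM in MKP5-KO 24 h cells, 6.02, 5.33 and 5.63 in WT 24 h cells and 43.2, 52.5 and 42.3 CPM in WT 0 h cells. The Myc libraries of the knockout lay below rest and above WT 24 h cells, at -1.38 log2 units (SE 0.11, limma adjusted p = 9.9e-07) and -3.01 log2 units against rest. Klf2 fell, at -1.07 log2 units (SE 0.070, limma adjusted p = 2.92e-07). Atf3, a stress-induced factor, was at the resting level in the knockout and is described with the genes at rest.

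Among 15 MAP kinase phosphatases, 2 were higher and 7 lower, beside 25.0% and 31.4% of all tested genes. The 7 lower ones include Dusp10, the gene that the knockout cells lack. The higher count was 1 without MKP5-KO library 2 or without WT 0 h library 1 or 3. Dusp6, a phosphatase of ERK, had 41, 55.3 and 46.1 CPM in MKP5-KO 24 h cells, 37.3, 40.9 and 31.1 in WT 24 h cells and 131, 147 and 133 CPM in WT 0 h cells. Dusp4, which acts on several MAP kinases, had 14.9, 21.9 and 27 CPM in MKP5-KO 24 h cells, 10.8, 7.53 and 9.61 in WT 24 h cells and 77.3, 63.5 and 70.2 CPM in WT 0 h cells. Both fell, at -1.54 log2 units (SE 0.12, limma adjusted p = 1.51e-06) and -1.76 log2 units (SE 0.20, limma adjusted p = 2.53e-05), and every knockout library was above every WT 24 h library in Dusp4. Dusp18 and Dusp7 stood at -2.51 log2 units (SE 0.18, limma adjusted p = 6.23e-07) and -0.88 log2 units (SE 0.083, limma adjusted p = 5.06e-06). Dusp5, a nuclear phosphatase of ERK, was higher at 1.13 log2 units (SE 0.21, limma adjusted p = 0.00107). Dusp1, another phosphatase of p38 and JNK, had 59.9, 65 and 59.3 CPM in MKP5-KO 24 h cells, 35.2, 34.7 and 28 in WT 24 h cells and 51.2, 54.3 and 48.7 CPM in WT 0 h cells. Its difference from rest, 0.26 log2 units, was inside the 1.5-fold limit and lost its call without MKP5-KO library 2, WT 0 h library 1 or WT 0 h library 3 (limma adjusted p of 0.0955, 0.0643 and 0.1).

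Most transcripts of the MAP kinase cascades lay close to rest. Of 34 tested members of the cascades, 25 lay within 1.5-fold, against 34.8% of all tested genes, while 9 were called higher and 10 lower, near the overall 25.0% and 31.4%. Mapk14, the p38 alpha that MKP5 acts on, had 211, 235 and 234 CPM in MKP5-KO 24 h cells, 269, 291 and 292 in WT 24 h cells and 159, 149 and 154 CPM in WT 0 h cells, a log2 fold change of 0.56 (SE 0.057, limma adjusted p = 8.55e-06). Mapk8, JNK1, stood at -0.49 log2 units (SE 0.14, limma adjusted p = 0.0106), whereas Mapk9, JNK2, was not called and was within 1.5-fold (-0.13 log2 units). Mapk3, ERK1, was higher by 0.45 log2 units (SE 0.044, limma adjusted p = 6.7e-06). Mapk6 and Mapk7 fell, at -1.08 log2 units (SE 0.065, limma adjusted p = 1.48e-07) and -1.11 log2 units (SE 0.073, limma adjusted p = 2.83e-07). Map3k14 and Map3k8, kinases upstream of NF-kB and ERK, stood at 0.77 log2 units (SE 0.11, limma adjusted p = 0.000146) and 0.67 log2 units (SE 0.12, limma adjusted p = 0.000476). These are RNA levels, and phosphorylation was not analysed here.

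**Figure D3:**
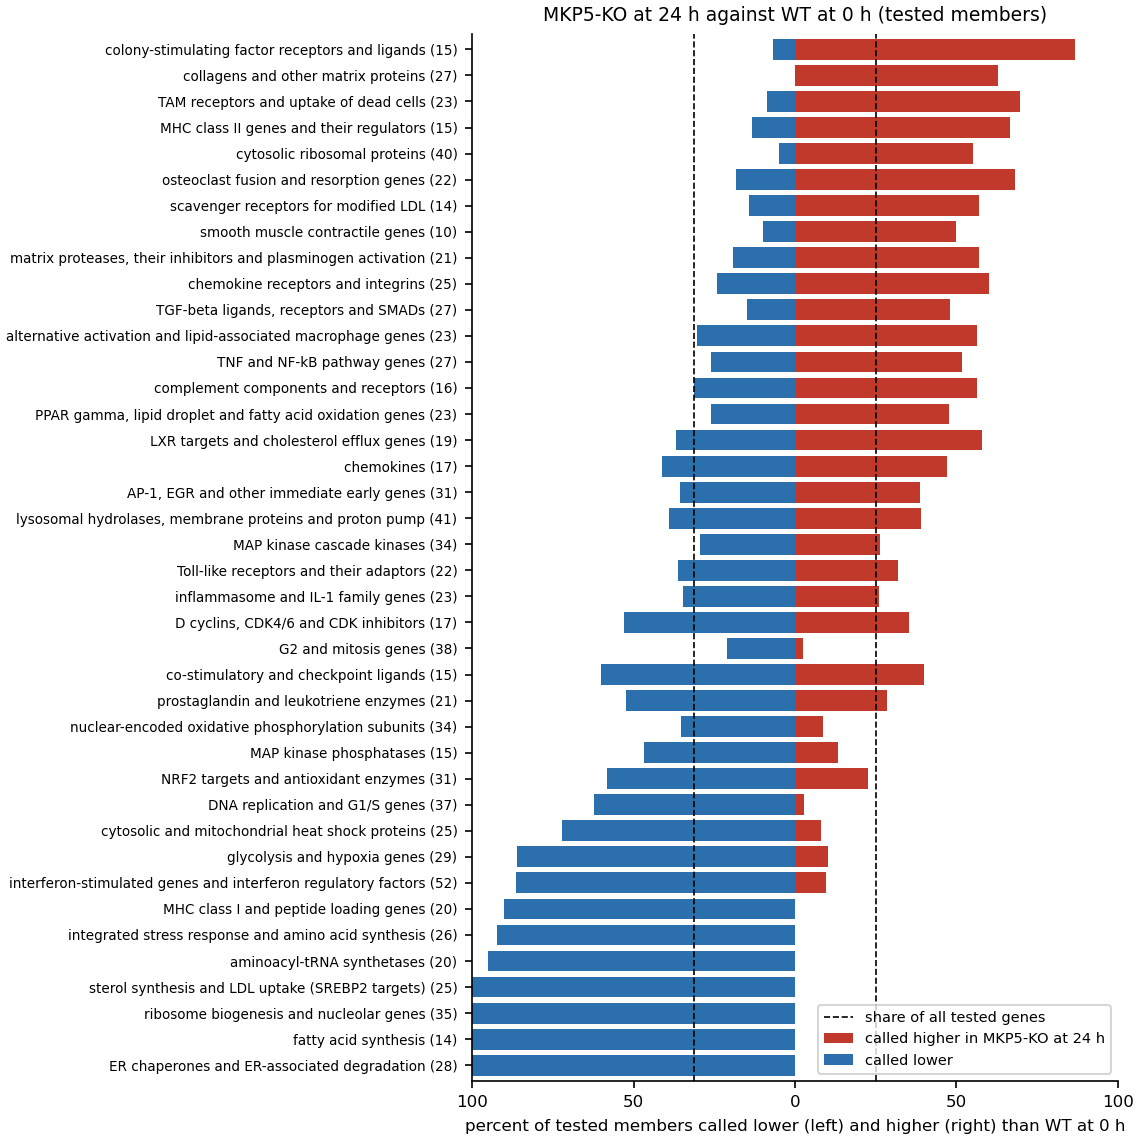
Percent of the tested members of each of 40 gene lists called lower (left, blue) and higher (right, red) in MKP5-KO 24 h than in WT 0 h cells, with the number of tested members in brackets and the lists in order of their percent higher minus percent lower; dashed lines mark the 31.4% and 25.0% of all tested genes. Sterol synthesis, fatty acid synthesis, ribosome biogenesis and endoplasmic reticulum chaperones reach the left end, and growth factor receptors and uptake of dead cells extend farthest to the right.

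Sterol synthesis was far below rest. All 25 tested members of the SREBP2 list were lower, against 31.4% of all tested genes, and 21 of them by at least 2-fold. The median was -1.82 in MKP5-KO 24 h cells and -1.77 in WT 24 h cells. Sqle, squalene epoxidase, had 16.3, 19.2 and 21.9 CPM in MKP5-KO 24 h cells, 20.3, 18 and 14.3 in WT 24 h cells and 132, 139.9 and 131 CPM in WT 0 h cells. Fdps, which makes farnesyl diphosphate, had 12.5, 10.5 and 12 CPM in MKP5-KO 24 h cells, 12.4, 9.82 and 13.5 in WT 24 h cells and 78.3, 92.6 and 84 CPM in WT 0 h cells. Every library of both 24 h groups was below every resting library. The log2 fold changes in the knockout were -2.82 (SE 0.13, limma adjusted p = 2.53e-08) for Sqle and -2.86 (SE 0.12, limma adjusted p = 1.02e-08) for Fdps. Insig1, the retention protein of SREBP, stood at -2.05 log2 units (SE 0.069, limma adjusted p = 2.25e-09). Ebp and Nfyc, the 2 members within 1.5-fold, stood at -0.22 log2 units and -0.25 log2 units; Ebp lost its call without MKP5-KO library 1 or WT 0 h library 2 (limma adjusted p of 0.0588 and 0.0754), and Nfyc without WT 0 h library 2 (0.058).

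Fatty acid synthesis fell with it, 14 of 14 tested members being lower, against 31.4% of all tested genes. The median was -1.43 in MKP5-KO 24 h cells and -1.13 in WT 24 h cells. Scd1 and Scd2 encode stearoyl-CoA desaturases. Scd1 had 5.18, 3.87 and 3.63 CPM in MKP5-KO 24 h cells, 3.43, 2.75 and 2.57 in WT 24 h cells and 131, 130.1 and 125 CPM in WT 0 h cells. Scd2 had 96, 90.4 and 94.7 CPM in MKP5-KO 24 h cells, 67.7, 72.8 and 65.6 in WT 24 h cells and 752, 794 and 769 CPM in WT 0 h cells. Every library of both 24 h groups was below every resting library. Scd1 was 30.6-fold lower than at rest, at -4.93 log2 units (SE 0.15, limma adjusted p = 1.66e-09), and Scd2 was 8.24-fold lower at -3.04 log2 units (SE 0.053, limma adjusted p = 3.84e-11). Fasn, fatty acid synthase, stood at -1.67 log2 units (SE 0.063, limma adjusted p = 4.93e-09) and Srebf1, their regulator, at -0.77 log2 units (SE 0.057, limma adjusted p = 6.52e-07). Fads1, a desaturase, was within 1.5-fold at -0.15 log2 units.

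LXR targets and efflux genes were mixed, with 11 of 19 higher and 7 lower, beside 25.0% and 31.4% of all tested genes. Abca1, the cholesterol exporter, had 582, 792 and 777 CPM in MKP5-KO 24 h cells, 889, 851 and 1090.0 in WT 24 h cells and 167, 173 and 189 CPM in WT 0 h cells. Apoe, an acceptor of exported cholesterol, had 2356, 3028 and 2945 CPM in MKP5-KO 24 h cells, 3471, 3098 and 4795 in WT 24 h cells and 674, 715 and 705 CPM in WT 0 h cells. Abcg1, a second exporter, had 346, 394 and 374 CPM in MKP5-KO 24 h cells, 261, 251 and 282 in WT 24 h cells and 198, 189 and 204 CPM in WT 0 h cells. All 3 rose against rest, at 2.01 log2 units (SE 0.12, limma adjusted p = 2.92e-07) for Abca1, 1.98 log2 units (SE 0.14, limma adjusted p = 8.95e-07) for Apoe and 0.91 log2 units (SE 0.063, limma adjusted p = 3.91e-07) for Abcg1. Nr1h3, the receptor LXR alpha, had 18.6, 18.3 and 18.4 CPM in MKP5-KO 24 h cells, 8.86, 6.2 and 6.56 in WT 24 h cells and 7.06, 7.72 and 6.7 CPM in WT 0 h cells. The knockout libraries were above all WT libraries, at 1.36 log2 units (SE 0.13, limma adjusted p = 3.79e-06), while WT 24 h cells lay at -0.008 log2 units, and Nr1h2, LXR beta, was at rest in the knockout (-0.007 log2 units, within 1.5-fold).

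Receptors for modified LDL rose in 8 of 14 tested cases and fell in 2 (Scarb1 and Cd68), beside 25.0% and 31.4% overall. Cd36 had 2843, 3362 and 3428 CPM in MKP5-KO 24 h cells, 2000.2, 1708 and 1561 in WT 24 h cells and 947, 1003 and 948 CPM in WT 0 h cells. Its knockout libraries were the highest, at 1.73 log2 units (SE 0.091, limma adjusted p = 9.74e-08). Clec7a, the beta-glucan receptor dectin-1, had 316, 331 and 309.5 CPM in MKP5-KO 24 h cells, 167, 134 and 157 in WT 24 h cells and 16.1, 13.8 and 15.5 CPM in WT 0 h cells, and was 21-fold higher than at rest, at 4.39 log2 units (SE 0.082, limma adjusted p = 4.83e-11). Cxcl16, a chemokine that also binds oxidized LDL, stood at 1.90 log2 units (SE 0.070, limma adjusted p = 4.15e-09), Msr1, the class A scavenger receptor, at 0.59 log2 units (SE 0.090, limma adjusted p = 0.000198), and Lrp1 at 0.78 log2 units (SE 0.072, limma adjusted p = 4.6e-06). Marco stood at 2.88 log2 units (SE 0.49, limma adjusted p = 0.000545), and at 2.24 without WT 0 h library 3. Scarb1, the HDL receptor, fell, at -1.01 log2 units (SE 0.058, limma adjusted p = 9.9e-08).

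Genes of lipid use and storage had 11 higher and 6 lower members of 23 tested, beside 25.0% and 31.4% of all tested genes. Lpl, lipoprotein lipase, had 4619.7, 5494 and 5247 CPM in MKP5-KO 24 h cells, 2359, 1794 and 1706 in WT 24 h cells and 1912, 1857 and 1939 CPM in WT 0 h cells. Pparg, the receptor PPAR gamma, had 55.2, 60.8 and 53.1 CPM in MKP5-KO 24 h cells, 26.7, 21.1 and 22 in WT 24 h cells and 32.9, 36.1 and 35 CPM in WT 0 h cells. In both genes the knockout libraries were the highest. The log2 fold changes over rest in MKP5-KO 24 h cells were 1.42 (SE 0.11, limma adjusted p = 1.33e-06) for Lpl and 0.70 (SE 0.090, limma adjusted p = 5.29e-05) for Pparg. In WT 24 h cells the values were 0.023 log2 units for Lpl and -0.58 log2 units for Pparg. Plin2, the coat protein of lipid droplets, had 570.1, 674 and 638 CPM in MKP5-KO 24 h cells, 487, 422 and 474 in WT 24 h cells and 1079, 1166 and 1113 CPM in WT 0 h cells, and fell, at -0.84 log2 units (SE 0.069, limma adjusted p = 1.79e-06). Fabp5, a fatty acid carrier, fell, at -1.80 log2 units (SE 0.16, limma adjusted p = 4.91e-06), and Ppard rose by 1.04 log2 units (SE 0.085, limma adjusted p = 1.52e-06).

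Antioxidant genes controlled by NRF2 fell in 18 of 31 tested cases and rose in 7, beside 31.4% and 25.0% of all tested genes. Of the 31, 15 lay within 1.5-fold of rest, against 34.8% of all tested genes. Slc7a11, the cystine importer, had 9.55, 9.69 and 12 CPM in MKP5-KO 24 h cells, 5.19, 5.65 and 7.04 in WT 24 h cells and 65.7, 64.2 and 71.3 CPM in WT 0 h cells. Sqstm1, the autophagy receptor p62, had 443, 462 and 479 CPM in MKP5-KO 24 h cells, 499, 534 and 573 in WT 24 h cells and 1696, 1941 and 1745 CPM in WT 0 h cells. These fell, at -2.69 log2 units (SE 0.18, limma adjusted p = 2.77e-07) and -1.96 log2 units (SE 0.063, limma adjusted p = 1.86e-09). Srxn1, sulfiredoxin, stood at -1.15 log2 units (SE 0.063, limma adjusted p = 6.97e-08) and Hmox1, heme oxygenase 1, at -0.55 log2 units (SE 0.087, limma adjusted p = 0.00029). Gpx1, glutathione peroxidase 1, and Slc40a1, the iron exporter, rose by 0.79 log2 units (SE 0.046, limma adjusted p = 1.1e-07) and 1.78 log2 units (SE 0.11, limma adjusted p = 3.08e-07).

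The integrated stress response, in which ATF4 turns on amino acid synthesis and import, was below rest. Of 26 tested members, none was higher and 24 were lower, beside 25.0% and 31.4% of all tested genes. The other 2, Vldlr and Cebpg, were not called. The median was -1.90 in MKP5-KO 24 h cells and -1.89 in WT 24 h cells. Phgdh, the first enzyme of serine synthesis, had 3.5, 3.81 and 3.51 CPM in MKP5-KO 24 h cells, 3.03, 2.57 and 2.97 in WT 24 h cells and 85.3, 88.9 and 89.6 CPM in WT 0 h cells. Asns, asparagine synthetase, had 12.8, 8.78 and 10.2 CPM in MKP5-KO 24 h cells, 10.7, 8.03 and 6.29 in WT 24 h cells and 96.9, 111 and 104 CPM in WT 0 h cells. Chac1, a glutathione-degrading enzyme, had 0.583, 0.517 and 0.484 CPM in MKP5-KO 24 h cells, 0.294, 0.413 and 0.133 in WT 24 h cells and 14.8, 16.8 and 16.2 CPM in WT 0 h cells. In each, no treated library reached a resting one, and the log2 fold changes in the knockout were -4.60 (SE 0.089, limma adjusted p = 5.12e-11) for Phgdh, -3.31 (SE 0.18, limma adjusted p = 1.25e-07) for Asns and -4.83 (SE 0.32, limma adjusted p = 2.92e-07) for Chac1. Atf4 itself stood at -1.64 log2 units (SE 0.063, limma adjusted p = 5.31e-09), and Ddit3, the factor CHOP, at -2.61 log2 units (SE 0.11, limma adjusted p = 8.81e-09). Cebpg lay at rest (-0.003 log2 units, within 1.5-fold).

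The promoters of Asns and Chac1 are shown because both fell and both hold a C/EBP-ATF response element, TGATGNAA, in capitals on whichever strand it was found (RefSeq, GRCm38.p6, 250 bases before the start, gene's strand). Asns lies at chr6:7693210-7693459 (minus strand) and Chac1 at chr2:119350992-119351241 (plus strand).
Asns: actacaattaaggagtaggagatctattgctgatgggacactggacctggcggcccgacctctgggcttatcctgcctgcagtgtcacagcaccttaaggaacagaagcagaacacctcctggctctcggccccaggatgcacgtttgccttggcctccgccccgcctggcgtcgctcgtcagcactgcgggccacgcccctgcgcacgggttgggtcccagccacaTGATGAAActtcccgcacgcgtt
Chac1: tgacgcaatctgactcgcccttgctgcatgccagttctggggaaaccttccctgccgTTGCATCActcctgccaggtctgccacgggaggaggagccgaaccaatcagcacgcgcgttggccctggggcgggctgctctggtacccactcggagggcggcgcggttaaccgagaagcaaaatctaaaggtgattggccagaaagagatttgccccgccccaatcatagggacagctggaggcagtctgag
The element was found, on either strand of the 250 bases before to 50 after the start, in 7 of 24 members of the list with a promoter (29.2%) and in 2.77% of the 10442 tested genes with one.

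Linked functions were lower too, in larger shares than the 31.4% of all tested genes. Of 20 aminoacyl-tRNA synthetases, 19 were lower and 1 not called (median -0.95), with Sars at -1.63 log2 units (SE 0.055, limma adjusted p = 2.25e-09) and Gars at -1.47 log2 units (SE 0.061, limma adjusted p = 9.12e-09). All 28 tested chaperones and degradation genes of the endoplasmic reticulum were lower (median -0.90 in MKP5-KO 24 h cells and -0.92 in WT 24 h cells). Hspa5, the main chaperone of that compartment, had 568, 601 and 628 CPM in MKP5-KO 24 h cells, 617, 571 and 585 in WT 24 h cells and 1977, 2264 and 2061 CPM in WT 0 h cells. It fell, at -1.81 log2 units (SE 0.058, limma adjusted p = 1.86e-09), and Hyou1 and Manf lay at -1.79 log2 units and -1.78 log2 units. Heat shock proteins of the cytosol and mitochondria were lower in 18 of 25 cases, among them Hspa9 at -1.58 log2 units (SE 0.071, limma adjusted p = 1.6e-08) and Hsp90aa1 at -0.96 log2 units (SE 0.072, limma adjusted p = 7.55e-07). The 2 higher ones were Dnajb4 and Bag3. The call of Bag3 (0.19 log2 units, within 1.5-fold) was lost when any 1 of 7 libraries was left out, which were MKP5-KO libraries 2 and 3, WT 24 h libraries 1 and 2 and the 3 WT 0 h libraries (limma adjusted p of 0.0532 to 0.142). The higher count was then 1, except without MKP5-KO library 3, where it was 2.

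Interferon-stimulated genes formed the largest list and were mostly below rest. Of 52 tested members, 45 were lower, against 31.4% of all tested genes, and 36 of them by at least 2-fold. The median was -1.64 in MKP5-KO 24 h cells and -1.83 in WT 24 h cells. The 5 higher members were Irf1, Irf2, Irf4, Irf5 and Irf8, all of them interferon regulatory factors rather than effectors, and Irf3 and Gbp7 were not called. Isg15, a ubiquitin-like protein, had 15.5, 18.7 and 12.3 CPM in MKP5-KO 24 h cells, 11.6, 8.31 and 9.44 in WT 24 h cells and 154, 186 and 164 CPM in WT 0 h cells. Ifit1, an RNA-binding antiviral protein, had 12.5, 21 and 11.6 CPM in MKP5-KO 24 h cells, 16.2, 14.6 and 17.6 in WT 24 h cells and 104, 118 and 112 CPM in WT 0 h cells. Irf7, the amplifier of type I interferon, had 90.6, 102 and 56 CPM in MKP5-KO 24 h cells, 46.2, 41.1 and 34 in WT 24 h cells and 506, 573 and 555 CPM in WT 0 h cells. The 3 genes fell without overlap with rest, at -3.45 log2 units (SE 0.15, limma adjusted p = 2.67e-08) for Isg15, -2.94 log2 units (SE 0.18, limma adjusted p = 3.46e-07) for Ifit1 and -2.76 log2 units (SE 0.19, limma adjusted p = 6.98e-07) for Irf7.

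Rsad2, the antiviral enzyme viperin, had 20.9, 49.9 and 19.4 CPM in MKP5-KO 24 h cells, 33, 20.6 and 30.8 in WT 24 h cells and 281, 385 and 314 CPM in WT 0 h cells, a log2 fold change of -3.57 (SE 0.32, limma adjusted p = 4.54e-06). MKP5-KO library 2 was the highest of its group in Rsad2, Ifit1 and Mx1. Mx1, a GTPase against influenza viruses, stood at -2.93 log2 units (SE 0.33, limma adjusted p = 2.67e-05), Bst2, the tetherin of budding viruses, at -1.83 log2 units (SE 0.066, limma adjusted p = 3.79e-09) and Oas3 at -2.22 log2 units (SE 0.13, limma adjusted p = 2.15e-07). Irf5 and Irf8 were higher by 0.23 log2 units (SE 0.051, limma adjusted p = 0.0027) and 0.25 log2 units (SE 0.071, limma adjusted p = 0.0103), both inside the 1.5-fold limit. Receptor chains of type I and type II interferon were higher than at rest. Ifnar1 stood at 0.25 log2 units (SE 0.048, limma adjusted p = 0.000957), Ifngr1 at 1.24 log2 units (SE 0.049, limma adjusted p = 6e-09) and Ifngr2 at 0.47 log2 units (SE 0.058, limma adjusted p = 4e-05).

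Promoters of Isg15, Rsad2 and Ifit1 are shown because these genes were among the lowest of the list and carry the interferon-stimulated response element (ISRE), searched as GAAA, any 2 bases and GAAA, in capitals on whichever strand it was found (RefSeq, GRCm38.p6, 250 bases before the start, gene's strand). Isg15 lies at chr4:156200819-156201068 (minus strand), Rsad2 at chr12:26456453-26456702 (minus strand) and Ifit1 at chr19:34640639-34640888 (plus strand).
Isg15: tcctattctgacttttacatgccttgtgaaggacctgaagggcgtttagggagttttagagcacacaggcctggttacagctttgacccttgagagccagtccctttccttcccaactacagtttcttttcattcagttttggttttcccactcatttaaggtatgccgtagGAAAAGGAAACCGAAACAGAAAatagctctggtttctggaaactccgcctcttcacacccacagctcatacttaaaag
Rsad2: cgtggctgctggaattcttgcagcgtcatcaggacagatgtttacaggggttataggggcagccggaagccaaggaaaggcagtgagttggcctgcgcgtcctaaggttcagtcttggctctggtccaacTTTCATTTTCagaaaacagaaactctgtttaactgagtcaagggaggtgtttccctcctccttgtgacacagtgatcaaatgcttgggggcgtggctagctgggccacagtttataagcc
Ifit1: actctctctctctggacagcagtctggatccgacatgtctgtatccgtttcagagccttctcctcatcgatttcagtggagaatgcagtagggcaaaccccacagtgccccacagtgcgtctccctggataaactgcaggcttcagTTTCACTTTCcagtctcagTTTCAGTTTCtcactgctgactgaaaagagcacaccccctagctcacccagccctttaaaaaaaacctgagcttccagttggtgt
Isg15 holds 3 overlapping matches and Ifit1 holds 2. On either strand of the 250 bases before to 50 after the start, the element was found in 21 of 41 members with a promoter in the table (51.2%), against 3.97% of the 10442 tested genes with one. Irf2, which was higher, was one of the 21.

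Glycolysis and hypoxia genes were lower in 25 of 29 tested cases, against 31.4% of all tested genes. The 3 higher ones were Gpi1, Eno2 and Pdk1. The median was -0.78 in MKP5-KO 24 h cells and -0.86 in WT 24 h cells. Ero1a, an oxidase of protein folding induced by hypoxia, had 27.2, 26.2 and 28.4 CPM in MKP5-KO 24 h cells, 33.4, 32 and 31.8 in WT 24 h cells and 137, 164 and 148 CPM in WT 0 h cells. Slc16a3, the lactate exporter, had 38.2, 47.9 and 45.9 CPM in MKP5-KO 24 h cells, 33.7, 35.7 and 35.1 in WT 24 h cells and 162, 168 and 147 CPM in WT 0 h cells. They fell, at -2.45 log2 units (SE 0.073, limma adjusted p = 1.5e-09) and -1.86 log2 units (SE 0.087, limma adjusted p = 2.15e-08), and Hk2, hexokinase 2, and Ldha, lactate dehydrogenase A, at -1.12 log2 units (SE 0.087, limma adjusted p = 1.02e-06) and -0.86 log2 units (SE 0.061, limma adjusted p = 5.5e-07). Pdk1 and Gpi1 were higher by small amounts inside the 1.5-fold limit, at 0.21 log2 units and 0.17 log2 units. The call of Pdk1 was lost without MKP5-KO library 2 or 3 or WT 0 h library 1 or 3 (limma adjusted p of 0.116, 0.101, 0.0622 and 0.134).

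Nuclear-encoded subunits of oxidative phosphorylation stayed near rest. Of 34 tested members 32 were within 1.5-fold, against 34.8% of all tested genes. Of the 34, 12 were called lower, near the overall 31.4%, and 3 higher, against 25.0%. With upper-quartile factors 6 were lower and 8 higher. The higher count was 1 without MKP5-KO library 3. Cycs, cytochrome c, had 38.8, 35.1 and 35.7 CPM in MKP5-KO 24 h cells, against 90.2, 94.6 and 95.2 CPM in WT 0 h cells and was the member that fell by more than 2-fold, at -1.35 log2 units (SE 0.10, limma adjusted p = 7.23e-07). Cytosolic ribosomal proteins were within 1.5-fold in 39 of 40 cases, against 34.8% of all tested genes. Rplp1, an acidic stalk protein, had 464, 460.4 and 468 CPM in MKP5-KO 24 h cells, against 348, 361 and 342 CPM in WT 0 h cells, a log2 fold change of 0.41 (SE 0.036, limma adjusted p = 2.92e-06). In all 22 were called higher and 2 lower, beside 25.0% and 31.4% of all tested genes. Upper-quartile scaling gave 35 higher and none lower. The lower calls, of Rpl27 and Rps6, were both lost without MKP5-KO library 1 or WT 0 h library 2 or 3. The lower count was 1 without MKP5-KO library 2 or 3 or any 1 of the WT 24 h libraries. The genes that build ribosomes were lower in 35 of 35 cases, against 31.4% of all tested genes. Their median was -0.73 in MKP5-KO 24 h cells and -1.09 in WT 24 h cells. Gnl3, nucleostemin, had 16.1, 15.6 and 15.2 CPM in MKP5-KO 24 h cells, 12.5, 12 and 14 in WT 24 h cells and 52.3, 48.8 and 49.7 CPM in WT 0 h cells, a log2 fold change of -1.68 (SE 0.088, limma adjusted p = 5.41e-08), and Ddx21 and Nop56 stood at -1.15 and -0.95.

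Genes of mitosis were largely at the resting level in the knockout. Of 38 tested members, 27 lay within 1.5-fold of rest, 25 of them with no difference called, against 34.8% and 21.2% of all tested genes. The median was -0.07 in MKP5-KO 24 h cells (0.06 with upper-quartile factors) and 0.61 in WT 24 h cells. Mki67, the proliferation antigen Ki-67, had 351, 377 and 448 CPM in MKP5-KO 24 h cells, 759, 761 and 578 in WT 24 h cells and 425, 367 and 450.3 CPM in WT 0 h cells. Top2a, topoisomerase II alpha, had 251, 239 and 282 CPM in MKP5-KO 24 h cells, 429, 420.1 and 291 in WT 24 h cells and 273, 244 and 269 CPM in WT 0 h cells. Kif11, a spindle motor, had 71.9, 71.8 and 81.1 CPM in MKP5-KO 24 h cells, 133, 130.3 and 95.9 in WT 24 h cells and 72.1, 72.3 and 80.1 CPM in WT 0 h cells. Knockout and resting libraries overlapped in all 3, and the limma adjusted p for lying within 1.5-fold was 0.00458 for Mki67, 0.00368 for Top2a and 0.0011 for Kif11.

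The members called different were Cenpa, higher at 0.70 log2 units (SE 0.076, limma adjusted p = 1.39e-05), and 8 lower ones: Ccnb1, Mad2l1, Plk4, Aurka, Cdc25b, Cdc25c, Ect2 and Anln. Ccnb1, cyclin B1, had 40.5, 39.3 and 49.1 CPM in MKP5-KO 24 h cells, 91.1, 98.4 and 71.5 in WT 24 h cells and 62.7, 63.7 and 60.1 CPM in WT 0 h cells, a log2 fold change of -0.54 (SE 0.12, limma adjusted p = 0.00227). The lower count was 5 without MKP5-KO library 1 and 4 without library 2, it was 5 without WT 0 h library 1 or 2 and 4 without library 3, and it was 3 with upper-quartile factors, which gave 7 higher. The calls lost without a library were those of Anln, Mad2l1, Cdc25c and Aurka, with limma adjusted p of 0.0513 to 0.136. The higher count was 5 without WT 24 h library 3, the lowest of its group in these genes.

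DNA replication genes were lower in 23 of 37 cases and higher in 1, beside 31.4% and 25.0% of all tested genes. The median was -0.44 in MKP5-KO 24 h cells and -0.82 in WT 24 h cells. Over the alternative settings the lower count ran from 18 to 29. The lower calls of Uhrf1, Rfc3 and Pola1 were lost in 13, 5 and 3 of 19 alternatives. Mcm2, a subunit of the replicative helicase, had 53.2, 51.9 and 52.4 CPM in MKP5-KO 24 h cells, 33, 29.3 and 21.5 in WT 24 h cells and 101, 103 and 105 CPM in WT 0 h cells, a log2 fold change of -0.97 (SE 0.13, limma adjusted p = 5.89e-05). Cdt1, a licensing factor, and E2f2 fell, at -0.70 log2 units (SE 0.083, limma adjusted p = 2.84e-05) and -1.19 log2 units (SE 0.11, limma adjusted p = 4.91e-06). Mcm7 was not called and lay within 1.5-fold. The higher member was Tk1, thymidine kinase, at 0.52 log2 units (SE 0.17, limma adjusted p = 0.0244), a call lost without MKP5-KO library 1 or 3 or WT 0 h library 2 (limma adjusted p of 0.0529, 0.0665 and 0.0721), which leaves none higher. Among D cyclins and inhibitors of cell cycle kinases, 6 of 17 were higher and 9 lower, beside 25.0% and 31.4% overall. Ccnd1, cyclin D1, had 152, 169.8 and 162 CPM in MKP5-KO 24 h cells, 82.3, 69.2 and 59.2 in WT 24 h cells and 536, 582 and 570.4 CPM in WT 0 h cells. Ccnd2, cyclin D2, had 35.8, 32.5 and 25.1 CPM in MKP5-KO 24 h cells, 11, 10.1 and 8.46 in WT 24 h cells and 116, 122 and 120.4 CPM in WT 0 h cells. In both the knockout lay between rest and the WT 24 h libraries, at -1.81 log2 units (SE 0.099, limma adjusted p = 1.03e-07) and -1.95 log2 units (SE 0.14, limma adjusted p = 4.67e-07), beside -3.01 log2 units and -3.60 log2 units in WT 24 h cells. Cdkn1c, the inhibitor p57, fell, at -3.61 log2 units (SE 0.18, limma adjusted p = 6.8e-08), and Cdkn1b, p27, rose by 1.04 log2 units (SE 0.073, limma adjusted p = 4.49e-07).

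**Figure D4:**
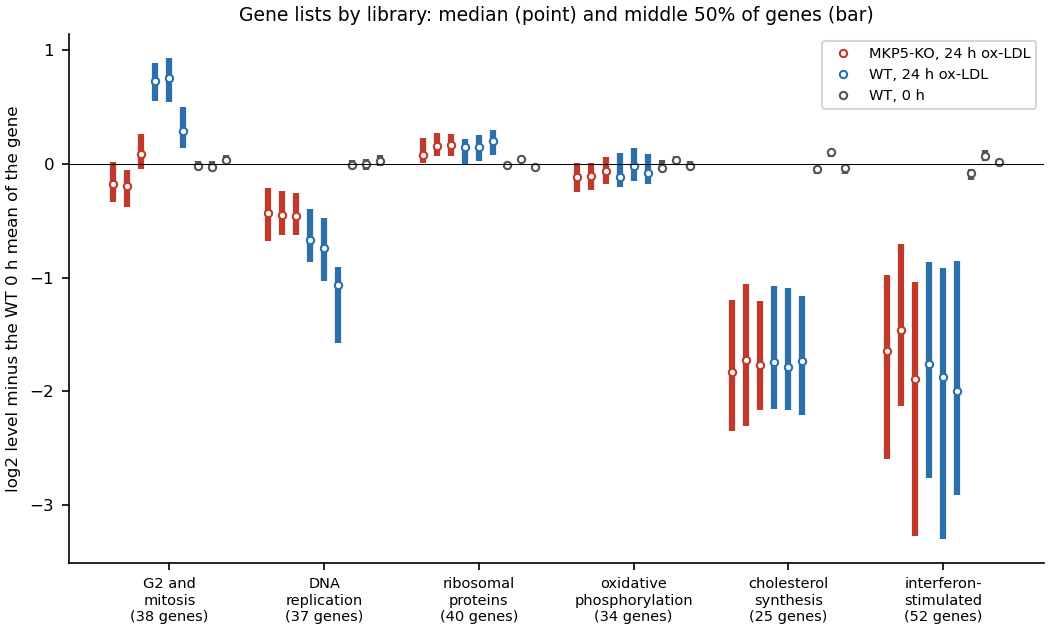
Median, over the members of 6 gene lists, of each library's log2 level minus the WT 0 h mean, with 1 point a library and a bar over the middle 50% of the genes. For mitosis the MKP5-KO libraries lie at -0.17, -0.19 and 0.09 and the WT 24 h libraries at 0.73, 0.75 and 0.29; for the sterol and interferon lists both 24 h groups lie below 0.

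Chemokines were both higher and lower, 8 and 7 of 17 tested, beside 25.0% and 31.4% of all tested genes. Besides Ccl2 and Ccl7, Ccl3 and Ccl4, which attract monocytes and T cells, fell, at -3.09 log2 units (SE 0.13, limma adjusted p = 2.14e-08) and -3.08 log2 units (SE 0.14, limma adjusted p = 2.74e-08), and Cxcl10, induced by interferon, fell, at -2.76 log2 units (SE 0.20, limma adjusted p = 1.05e-06). Cxcl14, a chemokine of epithelia and macrophages, had 70.6, 67 and 66.9 CPM in MKP5-KO 24 h cells, 43.9, 44.4 and 33.9 in WT 24 h cells and 8.37, 8.08 and 7.73 CPM in WT 0 h cells, and rose by 3.08 log2 units (SE 0.093, limma adjusted p = 1.58e-09). Ccl6, a mouse chemokine of myeloid cells, had 483, 569.9 and 522 CPM in MKP5-KO 24 h cells, 213, 164 and 179.9 in WT 24 h cells and 247, 272 and 249.6 CPM in WT 0 h cells. It was above rest at 1.03 log2 units (SE 0.092, limma adjusted p = 4.15e-06) in the knockout and lay at -0.47 log2 units in WT 24 h cells. Ccl24 had 15 reads over the knockout libraries and none over the resting ones, at least 6.16-fold higher with 3 reads over the group as the floor.

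Among receptors and integrins of migration, 15 of 25 were higher and 6 lower, beside 25.0% and 31.4% of all tested genes. Ccr2, the receptor of CCL2, had 47.9, 48.8 and 44.6 CPM in MKP5-KO 24 h cells, 37.7, 32.4 and 38.9 in WT 24 h cells and 298, 304 and 309.7 CPM in WT 0 h cells, and fell, at -2.69 log2 units (SE 0.074, limma adjusted p = 9.72e-10). Cx3cr1 rose by 1.36 log2 units (SE 0.19, limma adjusted p = 0.000119). The integrin subunits Itgal, Itgb5 and Itgb2 rose by 2.62 log2 units (SE 0.060, limma adjusted p = 1.83e-10), 1.70 log2 units (SE 0.045, limma adjusted p = 5.99e-10) and 1.21 log2 units (SE 0.046, limma adjusted p = 5.09e-09), and Itgav, listed with the osteoclast genes as well, was at rest (-0.006 log2 units, within 1.5-fold).

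The TNF and NF-kB list had 14 higher and 7 lower members of 27, beside 25.0% and 31.4% of all tested genes. Tnf had 13.5, 12.5 and 11.1 CPM in MKP5-KO 24 h cells, 5.38, 4.36 and 5.27 in WT 24 h cells and 25.2, 24 and 24.9 CPM in WT 0 h cells. Il1b, interleukin 1 beta, had 4.08, 6.72 and 5.02 CPM in MKP5-KO 24 h cells, 2.4, 1.7 and 2.66 in WT 24 h cells and 0.272, 0.206 and 0.108 CPM in WT 0 h cells. Il1rn, the antagonist of its receptor, had 8.97, 11.9 and 9.5 CPM in MKP5-KO 24 h cells, 6.36, 6.24 and 6.33 in WT 24 h cells and 58, 57.6 and 54.1 CPM in WT 0 h cells. Tnf was 2-fold lower than at rest (limma adjusted p = 5.05e-06), and Il1rn fell, at -2.49 log2 units (SE 0.12, limma adjusted p = 2.09e-08). Il1b rose from a low level, at 4.62 log2 units (SE 0.32, limma adjusted p = 4.19e-07). Tnfrsf1b, TNF receptor 2, rose by 1.79 log2 units (SE 0.058, limma adjusted p = 1.88e-09) and Nfkb2 by 0.90 log2 units (SE 0.070, limma adjusted p = 1.05e-06). In the inflammasome list 6 of 23 were higher and 8 lower, shares near the 25.0% and 31.4% of all tested genes. The higher count was 3 without WT 0 h library 3. Nlrp3, the sensor, fell, at -0.72 log2 units (SE 0.063, limma adjusted p = 2.58e-06), Il18 at -1.19 log2 units (SE 0.14, limma adjusted p = 2.86e-05), and Casp1, caspase 1, was not called and lay within 1.5-fold.

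Of 22 tested Toll-like receptors and adaptors 7 were higher and 8 lower, near the 25.0% and 31.4% of all tested genes. Tlr8 and Tlr1, sensors of RNA and of lipopeptides, rose by 1.16 log2 units (SE 0.069, limma adjusted p = 1.31e-07) and 1.13 log2 units (SE 0.089, limma adjusted p = 1.12e-06), and Tlr2 by 0.71 log2 units (SE 0.087, limma adjusted p = 3.76e-05). Tlr3, the sensor of double-stranded RNA, and Tlr4, the sensor of lipopolysaccharide, fell, at -1.20 log2 units (SE 0.092, limma adjusted p = 9.78e-07) and -0.60 log2 units (SE 0.071, limma adjusted p = 3e-05). Myd88, the shared adaptor, was at rest (-0.041 log2 units, within 1.5-fold).

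Uptake of dead cells was a list with more rises than falls. Of 23 members, 16 were higher and 2 lower (Gas6 and Elmo1), beside 25.0% and 31.4% of all tested genes. Mertk, a receptor of that uptake, had 72, 82.2 and 89 CPM in MKP5-KO 24 h cells, 145, 159.6 and 176 in WT 24 h cells and 37.3, 43.7 and 38.7 CPM in WT 0 h cells. Axl, its relative, had 299, 272 and 247 CPM in MKP5-KO 24 h cells, 122, 109.9 and 109.6 in WT 24 h cells and 169.7, 173 and 177 CPM in WT 0 h cells. Gas6, a ligand of both, had 309.8, 369 and 404 CPM in MKP5-KO 24 h cells, 526, 623 and 753 in WT 24 h cells and 721, 764 and 725 CPM in WT 0 h cells. In the knockout Mertk and Axl were above rest, at 1.02 log2 units (SE 0.095, limma adjusted p = 4.65e-06) and 0.65 log2 units (SE 0.071, limma adjusted p = 1.39e-05), and Gas6 below it, at -1.04 log2 units (SE 0.12, limma adjusted p = 3.77e-05). In WT 24 h cells the log2 values against the same rest were 2.00 for Mertk, -0.60 for Axl and -0.23 for Gas6. Pros1 and Mfge8, bridging proteins, rose by 1.89 log2 units (SE 0.078, limma adjusted p = 8.78e-09) and 1.24 log2 units (SE 0.076, limma adjusted p = 1.67e-07).

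Complement genes were higher in 9 of 16 cases, against 25.0% of all tested genes, and lower in 5, near the overall 31.4%. The lower count was 3 without WT 0 h library 2. C1qa, C1qb and C1qc, the chains of C1q, rose by 0.76 log2 units, 0.77 log2 units and 0.80 log2 units. C3 was higher in the knockout at 0.62 log2 units (SE 0.15, limma adjusted p = 0.00446) and lay at -0.38 log2 units in WT 24 h cells. C5ar1 fell, at -0.31 log2 units, inside the 1.5-fold limit.

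In the list of colony-stimulating factors and cytokine receptor chains, 13 of 15 members were higher, against 25.0% of all tested genes. The 1 lower member was Csf1. Csf1r, the receptor of CSF1, had 2427, 2679 and 2763 CPM in MKP5-KO 24 h cells, 3119.6, 3031 and 3635 in WT 24 h cells and 1133, 1091 and 1146 CPM in WT 0 h cells. Csf2rb, the shared beta chain of the GM-CSF, interleukin 3 and interleukin 5 receptors, had 418, 435 and 422 CPM in MKP5-KO 24 h cells, 361, 331 and 390.2 in WT 24 h cells and 111, 116 and 107 CPM in WT 0 h cells. Csf1, the ligand, had 9.4, 12.8 and 8.6 CPM in MKP5-KO 24 h cells, 10.8, 8.91 and 10.3 in WT 24 h cells and 66.1, 91.8 and 69.4 CPM in WT 0 h cells. The receptors rose by 1.22 log2 units (SE 0.069, limma adjusted p = 1.03e-07) and 1.93 log2 units (SE 0.062, limma adjusted p = 1.86e-09), and Csf1 fell, at -2.88 log2 units (SE 0.16, limma adjusted p = 1.1e-07). Il10ra, the interleukin 10 receptor, rose by 1.23 log2 units (SE 0.053, limma adjusted p = 1.25e-08). The list of alternative activation had 13 higher of 23, against 25.0% of all tested genes, and 7 lower, near the overall 31.4%. Igf1, insulin-like growth factor 1, had 610.1, 685 and 718 CPM in MKP5-KO 24 h cells, 671, 679.6 and 747 in WT 24 h cells and 187, 187 and 189 CPM in WT 0 h cells, and rose by 1.83 log2 units (SE 0.064, limma adjusted p = 2.98e-09). Spp1, osteopontin, had 633, 772 and 844 CPM in MKP5-KO 24 h cells, 946, 879 and 932 in WT 24 h cells and 4730.3, 3937 and 4607 CPM in WT 0 h cells, and fell, at -2.57 log2 units (SE 0.099, limma adjusted p = 1.11e-08). Folr2, Clec10a and Cst7 also fell, at -1.45 log2 units, -1.53 log2 units and -5.07 log2 units, the last being -4.27 without MKP5-KO library 3. Gpnmb and Ctsd, lysosomal proteins of lipid-laden macrophages, were within 1.5-fold of rest, at 0.28 log2 units and 0.28 log2 units.

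Most collagens and other matrix proteins were above rest in the knockout, from low levels. Of 27 tested members, 17 were higher and none was lower, beside 25.0% and 31.4% of all tested genes, and 10 were not called. The median was 1.53 in MKP5-KO 24 h cells and 4.86 in WT 24 h cells. Over the alternative settings the higher count ran from 13 to 23 and the knockout median from 1.2 to 2.11. By library, the medians were 2.55, 2.14 and 0.96 in MKP5-KO libraries 1, 2 and 3. Fn1, fibronectin, had 47.5, 69 and 54.8 CPM in MKP5-KO 24 h cells, 172, 157 and 131 in WT 24 h cells and 4.89, 5.4 and 3.51 CPM in WT 0 h cells. Col1a2, a chain of type I collagen, had 6.27, 4.84 and 3.63 CPM in MKP5-KO 24 h cells, 41.7, 39.5 and 35.1 in WT 24 h cells and 1.3, 0.617 and 0.649 CPM in WT 0 h cells. Postn, periostin, had 66 reads over the knockout libraries and 1 over the resting ones, an 81.3-fold ratio with a 95% counting interval of 14.1 to 3260. Fn1 and Col1a2 stood at 3.63 log2 units (SE 0.18, limma adjusted p = 4.56e-08) and 2.53 log2 units (SE 0.33, limma adjusted p = 6.01e-05) in the knockout, and at 5.07 log2 units and 5.54 log2 units in WT 24 h cells against the same rest.

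MKP5-KO library 3 was the lowest of its group in Col1a2, Col1a1, Bgn and Acta2. Col1a1, the other chain of type I collagen, had 5.69, 6.91 and 1.21 CPM in MKP5-KO 24 h cells, 43.1, 33.3 and 32.4 in WT 24 h cells and 0.435, 0.412 and 0.27 CPM in WT 0 h cells. Its log2 fold change was 3.23 (SE 0.54, limma adjusted p = 0.000484), and 4.01 without MKP5-KO library 3. Sparc stood at 1.53 log2 units (SE 0.33, limma adjusted p = 0.00247). Tnc, tenascin C, stood at 4.09 log2 units (SE 0.58, limma adjusted p = 0.00013), at 3.31 without WT 0 h library 2 and at 4.68 without library 3. Bgn and Acta2 overlapped with rest and were not called, with 95% intervals of 0.12 to 2.55 and -0.84 to 2.07 for the log2 fold change. Of 9 tested markers of stromal fibroblasts, 6 were higher and none lower; the 11 markers summed to 16.2 to 33.6 CPM in MKP5-KO 24 h cells, 103 to 125 CPM in WT 24 h cells and 7.51 to 10.8 CPM in WT 0 h cells, and the part of such cells in the matrix values was not tested.

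Smooth muscle contractile genes had 5 higher and 1 lower of 10 tested, beside 25.0% and 31.4% of all tested genes. Tpm1, tropomyosin 1, was among the higher ones at 0.82 log2 units (SE 0.058, limma adjusted p = 4.89e-07). Only 2 members were higher when 50 reads were required. Matrix proteases and their inhibitors were higher in 12 and lower in 4 of 21 cases, beside 25.0% and 31.4% of all tested genes. Mmp13, a collagenase, had 38.2, 47 and 42.9 CPM in MKP5-KO 24 h cells, 34.6, 24.5 and 24.9 in WT 24 h cells and 11, 14.8 and 12.3 CPM in WT 0 h cells, and rose by 1.75 log2 units (SE 0.15, limma adjusted p = 2.74e-06), and Mmp14, a membrane-bound protease, rose by 2.70 log2 units (SE 0.34, limma adjusted p = 4.79e-05). Mmp27 fell, at -2.28 log2 units (SE 0.11, limma adjusted p = 2.26e-08). Plaur, the urokinase receptor, was at rest (-0.11 log2 units, within 1.5-fold).

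In the TGF-beta list 13 of 27 were higher and 4 lower, beside 25.0% and 31.4% of all tested genes. Tgfbr1, a TGF-beta receptor, had 209, 220.0 and 222 CPM in MKP5-KO 24 h cells, 251, 232 and 236 in WT 24 h cells and 73.9, 74.3 and 75.6 CPM in WT 0 h cells, and rose by 1.54 log2 units (SE 0.051, limma adjusted p = 2e-09). Ltbp3, which binds latent TGF-beta, rose by 1.41 log2 units (SE 0.054, limma adjusted p = 5.09e-09), Tgfbi by 0.79 log2 units (SE 0.055, limma adjusted p = 4.27e-07) and Tgfb1 by 0.44 log2 units (SE 0.044, limma adjusted p = 7.72e-06). Among prostaglandin and leukotriene genes 6 of 21 were higher, near the 25.0% of all tested genes, and 11 lower, against 31.4%. Ptgs1, cyclooxygenase 1, had 67.1, 59.4 and 70.8 CPM in MKP5-KO 24 h cells, 95.8, 109 and 98.8 in WT 24 h cells and 10.5, 11.5 and 12.8 CPM in WT 0 h cells, and rose by 2.50 log2 units (SE 0.089, limma adjusted p = 3.34e-09). Ptgs2, cyclooxygenase 2, had 0.802, 0.646 and 0.484 CPM in MKP5-KO 24 h cells, 1.42, 0.551 and 0.709 in WT 24 h cells and 4.4, 3.76 and 3.84 CPM in WT 0 h cells, and fell, at -2.60 log2 units (SE 0.37, limma adjusted p = 0.000114). Ptgir, the prostacyclin receptor, Pla2g4a, a phospholipase that frees arachidonic acid, and Alox5, 5-lipoxygenase, fell, at -3.23 log2 units (SE 0.11, limma adjusted p = 2.25e-09), -1.78 log2 units (SE 0.079, limma adjusted p = 1.49e-08) and -2.32 log2 units (SE 0.24, limma adjusted p = 1.08e-05).

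Lysosomal genes were as often higher as lower, 16 and 16 of 41, beside 25.0% and 31.4% of all tested genes. Of the 41, 21 lay within 1.5-fold of rest, against 34.8% of all tested genes. With upper-quartile factors 18 were higher and 12 lower. Man2b1, a lysosomal mannosidase, had 1327, 1496 and 1421 CPM in MKP5-KO 24 h cells, 1311, 1307 and 1417 in WT 24 h cells and 513, 536 and 513 CPM in WT 0 h cells, and rose by 1.44 log2 units (SE 0.053, limma adjusted p = 4.31e-09). Ctsl, the protease cathepsin L, rose by 1.17 log2 units (SE 0.055, limma adjusted p = 2.25e-08). Tfeb, the transcription factor of lysosomal genes, rose by 1.11 log2 units (SE 0.057, limma adjusted p = 4.18e-08). Gla, which cleaves galactose from lipids, fell, at -0.76 log2 units. Npc1, which exports cholesterol from lysosomes, fell, at -0.60 log2 units (SE 0.061, limma adjusted p = 8.4e-06), while Lipa, the acid lipase that frees it, rose by 0.38 log2 units, inside the 1.5-fold limit. Subunits of the proton pump lay on both sides of rest, Atp6v0a1 at 0.75 log2 units and Atp6v1c1 at -0.85 log2 units, beside the larger value of Atp6v0d2 given above. Ctsb, cathepsin B, was not called and lay within 1.5-fold of rest.

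Some genes stood at the resting level in the knockout while WT 24 h cells did not. They were picked as those with the largest difference between the 24 h groups among genes within 1.5-fold of rest in the knockout, so their WT values are a description. Atf3 had 313, 355 and 341 CPM in MKP5-KO 24 h cells, 171, 146 and 144 in WT 24 h cells and 307, 336 and 315 CPM in WT 0 h cells. Knockout and resting libraries overlapped, and the limma adjusted p for lying within 1.5-fold was 0.000141. Kcnn4, a calcium-activated potassium channel, had 162, 189.8 and 174 CPM in MKP5-KO 24 h cells, 84.9, 78.9 and 69.3 in WT 24 h cells and 178, 193 and 189 CPM in WT 0 h cells (0.000344 by the same test). Flrt2, a guidance protein, had 36.4, 37.8 and 36.1 CPM in MKP5-KO 24 h cells, 18.9, 11.8 and 13.3 in WT 24 h cells and 39.3, 37.9 and 37.2 CPM in WT 0 h cells. In these 3 genes WT 24 h cells were lower than both other groups.

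The reverse pattern held Mmp8, collagenase 2 of neutrophils, and genes of mitosis. Mmp8 had 12, 8.59 and 8.66 CPM in MKP5-KO 24 h cells, 23, 25.9 and 23.7 in WT 24 h cells and 11.2, 9.26 and 8.6 CPM in WT 0 h cells. Ccnb2, cyclin B2, had 41.6, 40.7 and 56.3 CPM in MKP5-KO 24 h cells, 106, 128 and 99.6 in WT 24 h cells and 45.5, 43.9 and 45.4 CPM in WT 0 h cells. Cenpf, a kinetochore protein, had 56.1, 57 and 73.5 CPM in MKP5-KO 24 h cells, 149.7, 146 and 110.1 in WT 24 h cells and 61.2, 57.7 and 65.9 CPM in WT 0 h cells. WT 24 h cells were the highest group in each, and the limma adjusted p for lying within 1.5-fold of rest in the knockout was 0.00316 for Mmp8, 0.00229 for Ccnb2 and 0.00311 for Cenpf. Kif20a, Hmmr, Aspm, Ckap2 and Knstrn were the others picked by that rule, and 3 of them lost the call within 1.5-fold when single libraries were left out. For Aspm this was without MKP5-KO library 1 or 2 or WT 0 h library 1 or 3 (limma adjusted p of 0.109, 0.132, 0.101 and 0.105). For Hmmr it was without MKP5-KO library 3 or WT 0 h library 1 (0.0867 and 0.0745). For Ckap2 it was without MKP5-KO library 1 or 3 or WT 0 h library 2 (0.0529, 0.0773 and 0.056).

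Other genes were away from rest in the knockout while WT 24 h cells lay within 1.5-fold of it. Anxa1, annexin A1, a protein that ends inflammation, had 943, 1061 and 1006 CPM in MKP5-KO 24 h cells, 475, 402 and 381 in WT 24 h cells and 391, 395 and 401 CPM in WT 0 h cells. Slc7a7, a transporter of basic amino acids, had 30, 32.9 and 35.4 CPM in MKP5-KO 24 h cells, 12.4, 12.6 and 16.8 in WT 24 h cells and 12.4, 14 and 12.8 CPM in WT 0 h cells. Dpep2, a leukotriene-cleaving dipeptidase, had 263, 275 and 244 CPM in MKP5-KO 24 h cells, 128, 110.2 and 103 in WT 24 h cells and 106, 107 and 107 CPM in WT 0 h cells. With Lpl and Nr1h3 above, these were higher than all 6 WT libraries, at 1.34 log2 units (SE 0.074, limma adjusted p = 8.36e-08), 1.32 log2 units (SE 0.12, limma adjusted p = 3.06e-06) and 1.29 log2 units (SE 0.076, limma adjusted p = 1.18e-07) against rest. Cd33, an inhibitory receptor for sialic acids, had 23.5, 26.7 and 30.2 CPM in MKP5-KO 24 h cells, 63.5, 90.7 and 84 in WT 24 h cells and 74.3, 72.5 and 73 CPM in WT 0 h cells. Havcr2, the receptor TIM-3, had 9.18, 9.17 and 9.99 CPM in MKP5-KO 24 h cells, 19.8, 25.1 and 20 in WT 24 h cells and 19.1, 18.8 and 22.2 CPM in WT 0 h cells. Cd81, a tetraspanin, had 95.8, 98.9 and 110.1 CPM in MKP5-KO 24 h cells, 149.8, 161 and 164 in WT 24 h cells and 206, 213 and 206 CPM in WT 0 h cells. All 3 were below rest in every knockout library, at -1.46 log2 units (SE 0.13, limma adjusted p = 2.92e-06), -1.08 log2 units (SE 0.10, limma adjusted p = 5.88e-06) and -1.04 log2 units (SE 0.059, limma adjusted p = 9.23e-08). These genes were chosen by both contrasts, so the pattern itself is a description.

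Besides the class II chains and Axl, a few genes stood on opposite sides of rest at 24 h. Chst11, a chondroitin sulfotransferase, had 64.1, 73 and 76.9 CPM in MKP5-KO 24 h cells, 22.7, 19.1 and 17.1 in WT 24 h cells and 43.3, 40.4 and 46.5 CPM in WT 0 h cells. Dhrs9, a retinol dehydrogenase, had 36.2, 38.8 and 43.8 CPM in MKP5-KO 24 h cells, 14.4, 12.1 and 10.4 in WT 24 h cells and 26, 23.9 and 25.7 CPM in WT 0 h cells. Bhlhe40, a transcriptional repressor, had 25.3, 28.7 and 25.9 CPM in MKP5-KO 24 h cells, 10.6, 9.55 and 10 in WT 24 h cells and 16.6, 17.2 and 19.1 CPM in WT 0 h cells. In each the order was knockout, rest, WT 24 h from highest to lowest, with log2 fold changes of 0.71 (SE 0.11, limma adjusted p = 0.00019), 0.65 (SE 0.12, limma adjusted p = 0.000663) and 0.59 (SE 0.094, limma adjusted p = 0.000253) in the knockout. Cd109, a co-receptor that dampens TGF-beta signals, had 5.69, 4.2 and 7.2 CPM in MKP5-KO 24 h cells, 19.5, 25.2 and 21.5 in WT 24 h cells and 9.89, 12.4 and 12.4 CPM in WT 0 h cells. Cdkn3, a phosphatase of cell cycle kinases, had 3.94, 2.97 and 4.18 CPM in MKP5-KO 24 h cells, 14.2, 12.9 and 12.7 in WT 24 h cells and 9.35, 9.36 and 9.62 CPM in WT 0 h cells. Lacc1, a metabolic enzyme of macrophages, had 45.3, 45.9 and 51.5 CPM in MKP5-KO 24 h cells, 109, 105 and 110.2 in WT 24 h cells and 67.8, 83.3 and 77.6 CPM in WT 0 h cells. These had the opposite order, with log2 fold changes of -1.05 (SE 0.20, limma adjusted p = 0.000997), -1.36 (SE 0.12, limma adjusted p = 3.5e-06) and -0.68 (SE 0.078, limma adjusted p = 2.28e-05) in the knockout against rest.

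**Figure D5:**
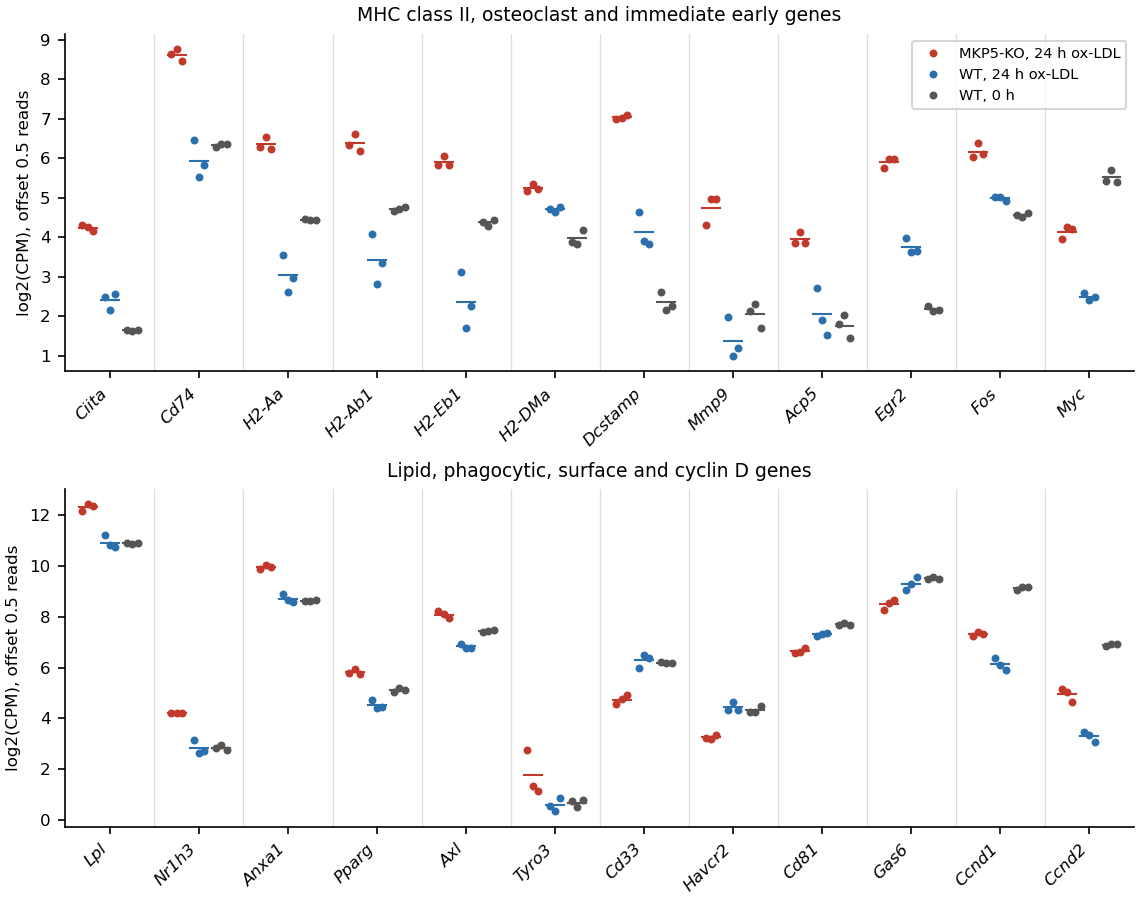
Log2 CPM (with 0.5 reads added) in each of the 9 libraries for 24 named genes, 1 point a library and a horizontal bar at each group mean, with MKP5-KO 24 h left of WT 24 h and WT 0 h. Ciita, Cd74 and Mmp9 are highest in the knockout libraries, H2-Aa, H2-Ab1 and H2-Eb1 are lowest in WT 24 h cells, and Ccnd1 and Ccnd2 of the knockout lie between rest and WT 24 h cells.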

How the data were processed

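RNA from 9 macrophage libraries was sequenced. The deposited values are log2 values per gene, normalized by TMM factors per the file headers, for 56775 genes a library. STAR and genome build GRCm39 are named in the submitters' processing notes. Versions, the counting tool, its annotation and its treatment of strand were not given in the sources used. Members of near-identical families (class II chains, Slfn, Ifit, Ly6 and ribosomal protein genes) and genes that overlap others are therefore uncertain.

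Whole reads were recovered from the log2 values, which held reads with 0.5 added, divided by the scaled library size and by gene length. With gene lengths of a GRCm38 annotation 46143 genes (81.3%) came out whole, and a length was fitted for 7485 more. Libraries held 11140000 to 19875435 reads. Intervals and floors cover counting error only.

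Tests ran on the deposited log2 values with limma 3.58.1 and statmod 1.5.0 in R 4.3.3 (a mean per group over all 9 libraries, trend and robust options), two-sided, with Benjamini-Hochberg adjustment over all tested genes and a threshold of 0.05. A gene was tested where 3 or more libraries held the equivalent of 10 reads in a library of median size. The fit was tested on simulated data of this comparison over 14690 genes. It called 51.6% of 62 genes changed 1.5-fold, 75.7% of 70 changed 2-fold, 86.8% of 68 changed 4-fold and 6 of 14490 unchanged genes. The simulation changed 200 genes in the knockout only and kept the WT groups alike, whereas 56.4% of genes were called here. Its rates therefore need not hold for the real comparison.

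The 40 lists (1018 of 1019 genes found) and the rules for named genes were chosen with earlier results of these data known. Named genes were Dusp10, the 12 largest rises and 12 largest falls with a mean of at least 5 CPM, up to 8 genes a direction at rest, away from rest or on opposite sides of it, and in each list the called members with the smallest p and members within 1.5-fold. Other genes were named after their values were seen, and some members counted in the lists are not reported here. Alternatives were 2 other scalings, 2 other filters, another offset, the 6 libraries alone, limma without trend and robust options, voom weights, thinned reads, a replicate block, each library left out and other limits for a gene at rest. Tables and figures used Python 3.11.15, numpy 2.4.6, scipy 1.17.1, pandas 2.3.3 and matplotlib 3.10.9.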

Additional observations from a re-analysis of the deposited data

How the results depend on the processing

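Leaving out 1 library at a time gave 3124 to 3625 genes higher, 4074 to 4660 lower, 1142 to 1541 higher and 978 to 1057 lower by at least 2-fold, and 4488 to 5204 within 1.5-fold. Upper-quartile factors gave 58.3% of calls higher, against 44.3% as reported, with 1808 genes higher and 783 lower by at least 2-fold, and 5496 within 1.5-fold. The cause was not tested. Relative log expression factors gave 4028 higher and 4269 lower genes. A filter of 50 reads left 765 genes higher by at least 2-fold, fewer genes being tested. A stricter limit for a gene at rest left 919 genes, and a limit of 2-fold gave 9261. Under upper-quartile factors the small called falls of Gpx4, Rpl27 and Rps6 became log2 fold changes of 0.01, 0.04 and 0.0 with no call. Hsp90ab1, Sdhd and Rpl8, not called as reported, were called higher at 0.14, 0.12 and 0.08. For genes with a few reads in the knockout libraries, such as Ltf and Ly6c2, depth limits how well the size of the fall is known.

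With the replicate number as a block, 3805 genes were higher and 4623 lower, 1421 and 1018 by at least 2-fold, and 5135 lay within 1.5-fold. Deviations of same-numbered MKP5-KO 24 h and WT 0 h libraries correlated at 0.194, 0.077 and 0.016. MKP5-KO libraries 1 and 2 correlated best with the WT 0 h library of the same number. MKP5-KO library 3 correlated best with WT 0 h library 2, at 0.124. With 3 libraries a group, these values cannot decide whether the numbers pair the samples.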
